A study of Mus musculus with 4 samples.

Results

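The 7 miRNA genes examined here are used as markers of endodermal organs, liver and epithelia and were measured in stroma cells of the mouse embryo. They are Mir192, Mir194-1, Mir194-2, Mir215, Mir122, Mir375 and Mir203. The set was chosen by name, and 7 of 7 had a row among the 643 miRNA rows of a table of 2976 genes. The study profiled small RNA in 4 libraries of 1 group. The cells came from CD1 embryos at stage E10.5, carried Tbx18-Cre and CAG-tdTomato, and were taken by flow sorting from the tissue next to the wolffian duct, an epithelial tube that gives rise to the ureteric bud. Tbx18-Cre acts where the Tbx18 promoter has been active, and the reporter then marks those cells and their descendants with a red fluorescent protein, so the sorted population holds present and former Tbx18-expressing cells. All libraries share this genotype and stage, and no library of another cell type, stage or genotype was used here. The labels also describe the cells as wildtype, and give no word on embryos or pools per library. Spreads and p-values here thus cover variation between these 4 libraries, of which some or all may be technical.

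A miRNA is cut from a hairpin precursor into a short mature strand from its 5p or 3p arm, which guides a silencing complex to messenger RNAs that pair with its seed, bases 2 to 8. miR-122 is the most abundant miRNA of hepatocytes. miR-192, miR-194 and miR-215 are made from paired genes in 2 clusters and are known from gut, liver and kidney epithelium. miR-375 is known from pancreatic islets and other endocrine cells, and miR-203 from stratified epithelium such as skin. In bulk RNA of a sorted population, few cells with much of a miRNA and many cells with little of it cannot be told apart.

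The mature sequences, from RefSeq on GRCm38.p6, show which of these genes can be told apart by a read, and the seed is in capitals.
miR-192-5p: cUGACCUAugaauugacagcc
miR-215-5p: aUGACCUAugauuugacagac
miR-194-5p: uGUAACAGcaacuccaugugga
miR-203-3p: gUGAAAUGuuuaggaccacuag
miR-192-5p and miR-215-5p share the seed UGACCUA, and no other of the 1679 mature names in the sequence table has it. Counted from the 5′ end, they were identical at 18 of 21 bases and differed by C1A, A12U and C20A, with the miR-192-5p base given first. Mir194-1 and Mir194-2 encode the same miR-194-5p, identical at 22 of 22 bases. Their hairpins are shown because they differ outside that strand, which is in capitals.
Mir194-1: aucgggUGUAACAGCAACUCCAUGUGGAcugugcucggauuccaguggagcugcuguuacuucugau
Mir194-2: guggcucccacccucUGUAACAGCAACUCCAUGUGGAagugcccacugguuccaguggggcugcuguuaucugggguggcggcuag
A read of the 5p strand fits both genes, whereas the 3p strands differed at 4 of 22 bases (A8G, C19U, U20C and C22G, with the base of miR-194-1-3p first). The rows of the table are genes and not arms, so which arm gave the reads is not known here. The authors' treatment of reads that fit both genes was not given in the sources used here, and the split between the 2 copies is uncertain. The Mir375 hairpin is the shortest of the set and is shown with miR-375-5p in capitals.
Mir375: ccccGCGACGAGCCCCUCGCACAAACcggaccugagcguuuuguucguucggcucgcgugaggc
The sequences used had no entry for miR-375-3p, so that strand is not marked in the Mir375 hairpin. The capitals do not mean that miR-375-5p is the main strand. No sequence is printed for Mir122.

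The genes lie at 5 loci of GRCm38. Mir192 (gene ID 387187), on the plus strand of chromosome 19 at 6264844 to 6264932, lies 116 nt from Mir194-2 (gene ID 723957; 6264643 to 6264728). Both are intergenic in GENCODE vM21. Mir194-1 (gene ID 387189), on the plus strand of chromosome 1 at 185313319 to 185313385, lies 196 nt from Mir215 (gene ID 387211; 185313581 to 185313692). This pair lies in an intron of Iars2, on the opposite strand. On its own strand the pair overlaps the noncoding gene 2010103J01Rik, Mir194-1 in an intron and Mir215 over an exon. Mir375 (gene ID 723900) is on the minus strand of chromosome 1 at 74900658 to 74900721, between Cryba2 and Cfap65. Mir203 (gene ID 387199) is on the plus strand of chromosome 12 at 112130880 to 112130955, and RefSeq places Gm51289, also named Mir203b, at the same position. Mir122 (gene ID 387231) on chromosome 18 likewise overlaps Mir122b, and it also overlaps an exon of the noncoding gene AC157910.3. Neither Gm51289 nor Mir122b had a row in the table. Whether counting used strand was not given in the sources used here, so reads of such overlapping genes cannot be told apart. Within 10 kb of each of these genes, no other RefSeq gene had a row.

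Values are TPM (a read count per unit of gene length, scaled to 1 total per library). For each value the number of reads was recovered from the TPM and the hairpin length. Reads on all miRNA rows ranged from 146255 in library 4 to 1087240 in library 2. Library 4 also had the lowest TPM sum over miRNA rows, 16399 against 42494 to 65478 in the others, so TPM of most miRNAs is low there, and shares of the miRNA sum are given beside TPM where this matters. The miRNAs of mesenchyme and smooth muscle (Mir199a-1, Mir199a-2, Mir199b, Mir214, Mir143 and Mir145a) summed to 1511 ± 873 TPM (SD, n = 4), with Mir199a-2 and Mir214 listed at 0. With no library of another cell type, this sum cannot test the labelled cell type. The table has no row for Tbx18 itself.

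With detection defined as 1 TPM or more in each of the 4 libraries, 5 of the 7 genes were detected, namely Mir122, Mir192, Mir375, Mir203 and Mir194-1. Over all miRNA rows the share detected was 33.1%. The 7 genes had a median of mean levels of 5.17 TPM, against 0.315 TPM over all 643 miRNA rows and 2.94 TPM over the 440 rows above 0 in some library. They were spread over a wide range of ranks among miRNA rows by mean TPM, from 78 for Mir122 to 346 for Mir215, with Mir192 at 133, Mir375 at 160, Mir203 at 199, Mir194-1 at 226 and Mir194-2 at 233.

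**Figure D1:**
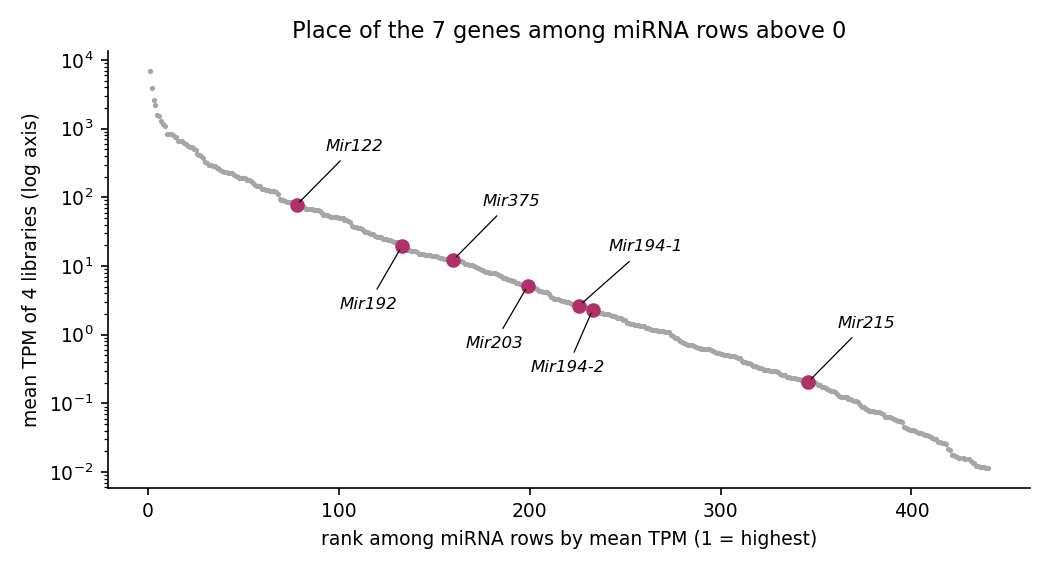
Mean TPM over 4 libraries (log axis) against rank for every miRNA row above 0 in some library, with the 7 genes marked. Mir122 stands highest at rank 78 and Mir215 lowest at rank 346, and the others lie between ranks 133 and 233.

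Mir122, the hepatocyte miRNA, was the highest of the set. It measured 91.8, 23.5, 51.7 and 143 TPM in libraries 1 to 4, from 1550, 319, 654 and 1021 reads. Its mean was 77.6 ± 52.1 TPM (SD, n = 4), and library 4 was 6.10 times library 2. The level was therefore highest in the library with the fewest miRNA reads. The 95% exact Poisson interval was 135 to 153 TPM in library 4 and 21.0 to 26.2 TPM in library 2, so these libraries differed by far more than counting error, which is all that such intervals cover. As a share of the summed TPM of miRNA rows, Mir122 took 0.216%, 0.0359%, 0.0838% and 0.875% in libraries 1 to 4, a range of 24.4 times. Its mean share was 0.303%, and 0.112% without library 4. Within library 4 it ranked 26 among miRNA rows, against 74, 134 and 99 in libraries 1 to 3.

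Mir192, which carries the seed shared with miR-215-5p, was the next highest. It measured 12.6, 30.9, 24.4 and 9.17 TPM in libraries 1 to 4, from 287, 565, 416 and 88 reads, a mean of 19.3 ± 10.1 TPM (SD, n = 4). In TPM the gene was highest in library 2 and lowest in library 4, the reverse of Mir122. As a share of the miRNA sum, however, it was 0.0297%, 0.0472%, 0.0395% and 0.0559%, highest in library 4 and within a range of 1.88 times. The rank of Mir192 was also steady, between 122 and 148 in the 4 libraries.

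The gene next to Mir192, Mir194-2, was far lower. Its levels were 2.50, 2.60, 3.28 and 0.863 TPM in libraries 1 to 4, from 55, 46, 54 and 8 reads. It fell short of 1 TPM only in library 4. Within each library Mir192 was 5.04, 11.9, 7.44 and 10.6 times Mir194-2, a mean of 8.75 ± 3.09 times (SD, n = 4), although the genes are 116 nt apart. The levels of different miRNAs in a small RNA library also carry ligation and amplification preferences. Reads of miR-194-5p may also be left out, or be listed under the other copy. Mir194-1, that copy on chromosome 1, measured 1.93, 5.15, 2.41 and 1.11 TPM, from 33, 71, 31 and 8 reads. The copies overlapped in level, and Mir194-1 held 43.5%, 66.5%, 42.4% and 56.2% of their summed TPM. Summed over both copies miR-194 reached 4.96 ± 2.42 TPM (SD, n = 4).

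Mir215, the neighbour of Mir194-1, had few or no reads listed. It was listed at 0 in libraries 1 and 2, at 0.745 TPM from 16 reads in library 3 and at 0.0828 TPM from 1 read in library 4. The counts of 0 allow up to 0.105 TPM in library 1 and 0.130 TPM in library 2, taking 3 reads as the limit, for counting error only. Only library 3 thus held more than 1 read, with an exact Poisson interval of 0.426 to 1.21 TPM. Mir192 was 32.7 times higher than Mir215 in library 3. Of the reads per length assigned to the 2 genes with the UGACCUA seed, Mir192 therefore held 97.0% in library 3 and 99.1% in library 4. The capitals in the aligned sequences above show that both mature strands have the same seed.

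Taken by locus, the chromosome 19 pair (Mir194-2 and Mir192) summed to 15.1, 33.5, 27.7 and 10.03 TPM in libraries 1 to 4. The chromosome 1 pair (Mir194-1 and Mir215) summed to 1.93, 5.15, 3.16 and 1.19 TPM. The chromosome 19 pair was higher in each library, and both pairs were highest in library 2 and lowest in library 4. Moving listed reads between the miR-194 copies can shift the balance between the loci only by the few TPM that these copies hold. Any miR-194-5p reads left out of the counts because they fit both genes would not be covered by this limit.

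Mir375, known from endocrine cells, measured 17.0, 10.6, 6.52 and 15.1 TPM in libraries 1 to 4, from 278, 139, 80 and 104 reads. Its mean was 12.3 ± 4.69 TPM (SD, n = 4), and libraries 1 and 4 were above libraries 2 and 3, as for Mir122. Its coefficient of variation, 38.2%, was the smallest in the set and below the median of 58.5% over the 213 detected miRNA rows. On the share scale this steadiness was lost, since Mir375 took 0.0400%, 0.0161%, 0.0106% and 0.0919% of the miRNA sum, a range of 8.70 times. Mir203, known from stratified epithelium, measured 4.42, 5.12, 8.58 and 2.56 TPM, from 86, 80, 125 and 21 reads. Its mean was 5.17 ± 2.52 TPM (SD, n = 4), with library 3 highest and library 4 lowest. As a share it stayed between 0.00782% in library 2 and 0.0156% in library 4.

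**Figure D2:**
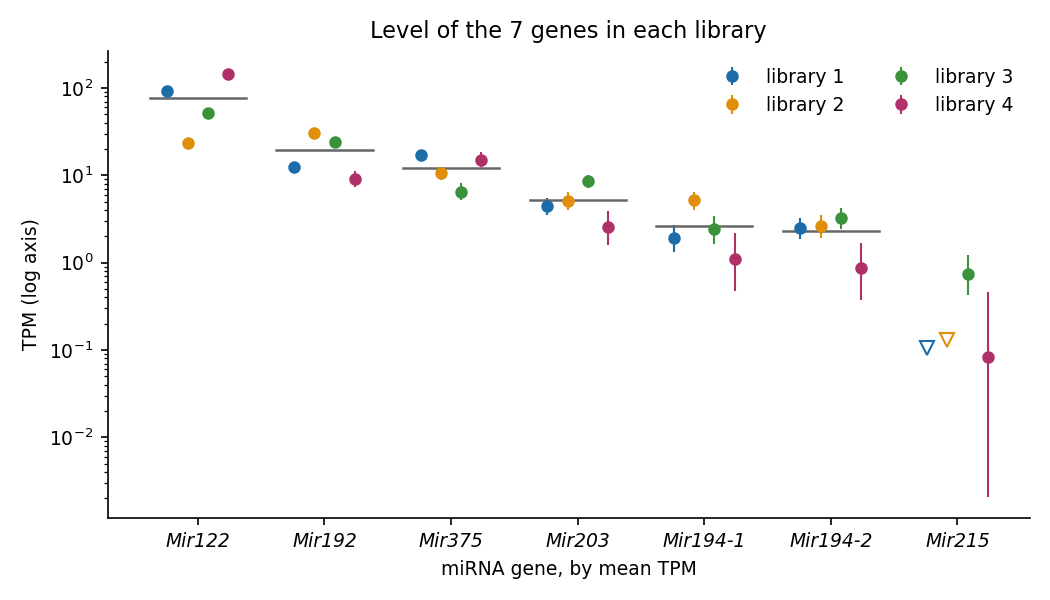
TPM (log axis) of each gene in each library, with points coloured by library, vertical bars for the 95% exact Poisson interval of the reads, and horizontal lines for the mean of 4 libraries. Open triangles mark the limit that a count of 0 allows, for Mir215 in libraries 1 and 2. Mir122 runs from 23.5 to 143 TPM and is highest in library 4, where Mir192, Mir203, Mir194-1 and Mir194-2 are at their lowest.

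Together the 7 genes summed to 130, 77.8, 97.6 and 172 TPM in libraries 1 to 4, or 120 ± 41.3 TPM (SD, n = 4). As a share of the miRNA sum they took 0.307%, 0.119%, 0.158% and 1.05%, a mean of 0.409% that was 0.195% without library 4. Mir122 alone made up 70.5%, 30.2%, 53.0% and 83.3% of their sum. The other 6 genes summed to 38.4, 54.3, 45.9 and 28.9 TPM, with the lowest sum in library 4, where Mir122 was highest. As a share of the miRNA sum, however, these 6 genes took 0.0905%, 0.0830%, 0.0744% and 0.176%, so on that scale they too were highest in library 4. In library 2 Mir192 was the larger component, at 39.7%.

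**Figure D3:**
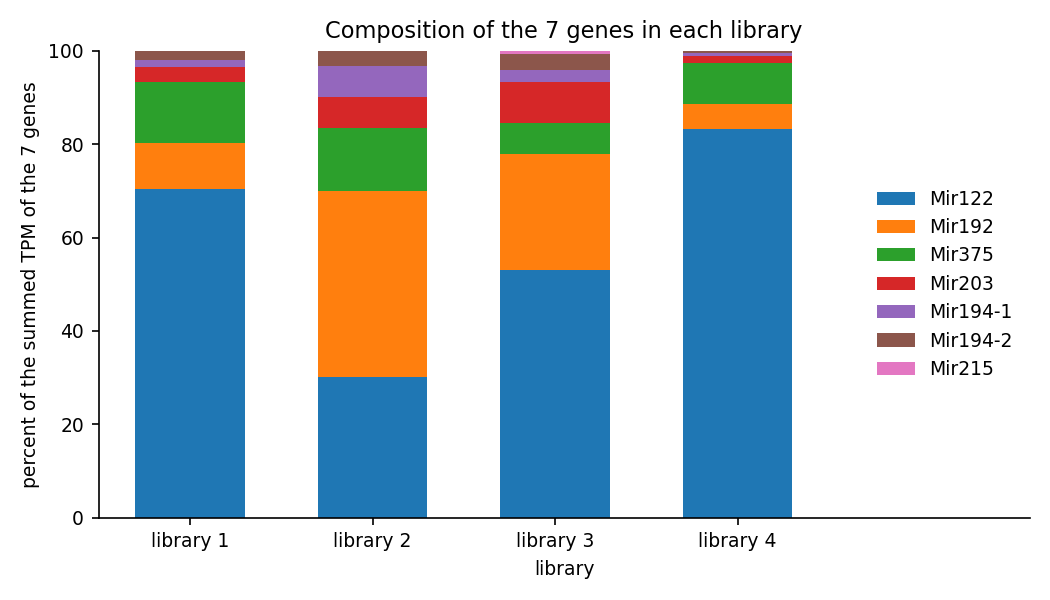
Stacked bars give each gene's percentage of the summed TPM of the 7 genes in each library. Mir122 is 83.3% of the sum in library 4 and 30.2% in library 2, where Mir192 is 39.7%.

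The libraries thus ordered the genes in different ways. Mir122 was highest in library 4, which was so for 3.29% of the 213 detected miRNA rows (7 of 213). Mir122 and Mir375 had libraries 1 and 4 both above libraries 2 and 3, again 7 of 213 rows or 3.29%. Mir192, Mir194-1 and Mir203 had the opposite order, libraries 2 and 3 above 1 and 4, as did 54.0% of detected rows. These patterns were described after the values were seen, and they depend on the scale. On shares of the miRNA sum, libraries 1 and 4 were above 2 and 3 in 24.4% of detected rows, still with Mir122 and Mir375, and library 4 was highest in 34.3%, with Mir192, Mir122, Mir375 and Mir203. A ranking that does not depend on the scaling of libraries is the ratio of library 4 to library 2, whose median over detected rows was 0.267. This ratio was 6.10 for Mir122, second of 213, and 1.43 for Mir375, rank 12. For Mir203 it was 0.501, rank 42, for Mir192 0.297, rank 91, and for Mir194-1 0.215, rank 144. Library 4 was the highest and library 2 the lowest for Mir122 in TPM. Its place by this ratio was thus in part set by the choice of libraries.

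Markers of other cell types also differed between the libraries. A 0 in these lists is a listed value and does not show that a miRNA was absent, since 203 of 643 miRNA rows were at 0 in all 4 libraries, among them the broadly expressed Mir21a, Mir22, Mir24-1 and Mir24-2. The list sums may therefore be understated. The mesenchyme and smooth muscle list, with 4 of 6 genes detected, summed to 1894, 2373, 1444 and 331 TPM, or 4.46%, 3.62%, 2.34% and 2.02% of the miRNA sum, in libraries 1 to 4. The striated muscle list, with 2 of 5 genes detected and Mir1a-2 at 0, summed to 341, 129, 119 and 224 TPM. Almost all of it was Mir206, at 327, 121, 101 and 216 TPM, with libraries 1 and 4 above 2 and 3. Mir1a-1, the other detected gene of that list, did not have this order, at 13.1, 7.58, 13.2 and 7.59 TPM. The erythroid list stayed between 0.878 and 11.9 TPM with none of 3 genes detected and Mir486 at 0. White blood cell miRNAs stayed between 3.61 and 9.19 TPM with none of 4 detected and Mir223 at 0. Endothelial Mir126a lay between 251 and 528 TPM. The neural list, with 1 of 6 genes detected and Mir124a-1 at 0, was between 35.7 and 2890 TPM and highest in library 3. Almost all of it was listed under Mir9-3, at 345, 35.2, 2860.5 and 78.3 TPM. How any reads that fit several Mir9 genes were assigned is not known here. In library 3 the neural list took 4.68% of the miRNA sum, above the 2.34% of the mesenchyme and smooth muscle list. The part of other cells or of depth in the levels of Mir122 and Mir375 was not tested.

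**Figure D4:**
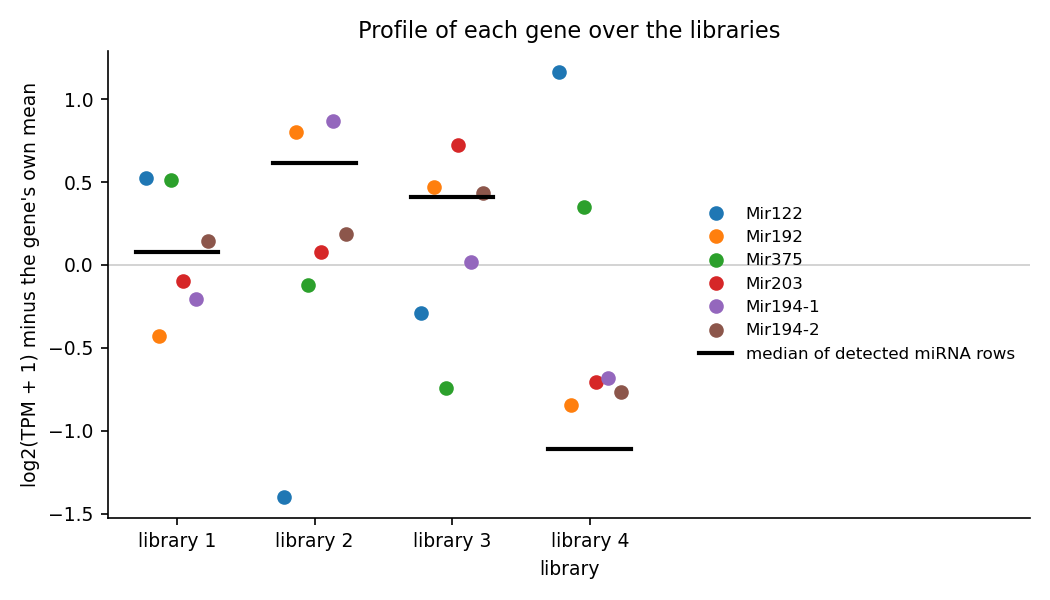
For each gene with a mean of at least 1 TPM, log2(TPM + 1) in each library minus the gene's own mean over 4 libraries, with the median of 213 detected miRNA rows as a black line. In library 4 Mir122 is at 1.16 and Mir375 at 0.35, while the median is at -1.11 and the other 4 genes lie between -0.85 and -0.68.

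Likeness between genes was measured as the root mean square difference of these centred profiles over the 4 libraries, in log2 units, where a small value means a like profile. Among the set, Mir194-2 and Mir203 were closest at 0.20, followed by Mir192 and Mir194-1 at 0.27. The neighbours Mir192 and Mir194-2 were at 0.42, and Mir122 was farthest from Mir192 at 1.61. The closest gene of the set to Mir122 was Mir375, at 0.79. Among miRNA rows averaging 10 TPM or more, the nearest to Mir122 were Mir1839 at 0.61, Mirlet7a-1 at 0.65 and Mir3068 at 0.67, against a median distance of 1.71 over 169 rows. The nearest to Mir375 was Mir206, a skeletal muscle miRNA, at 0.28, followed by Mir376b at 0.44 and Mir483 at 0.49. Mir203 was nearest to Mir200b, an epithelial miRNA of the miR-200 family, at 0.09, and then to Mir126a at 0.21 and Mir760 at 0.23. The median distance was 0.64 over 170 rows. Mir200b measured 24.4, 24.04, 44.1 and 15.9 TPM, highest in library 3 and lowest in library 4 like Mir203. Of the other epithelial miRNAs listed, only Mir200a shared both. Mir200c and Mir205 were lowest in library 2 and Mir429 in library 1, while Mir141 was highest in library 2 and lowest in library 1. Mir192 was nearest to Mir335 at 0.11, Mir340 at 0.12 and Mir5099 at 0.14. Mir194-1 was nearest to Mir128-1 at 0.09, Mir615 at 0.12 and Mir676 at 0.14, and Mir194-2 to Mir380 and Mir760 at 0.22 and Mir23a at 0.23. With 4 libraries these distances rest on few points that share depth, and they describe these libraries. The pseudocount of 1 TPM shrinks differences between libraries for low genes such as Mir194-2, which can make their profiles look alike. Counting error was not carried into the distances. Of these 18 nearest genes, 10 were kept when shares of the miRNA sum replaced TPM, 7 when rows from a mean of 1 TPM were admitted and 6 with a pseudocount of 10 TPM.

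Levels of the 6 miRNAs, with the miR-194 copies summed, were set against each other library by library, as log2 of the ratio of TPM plus 1. Of 15 pairs, 11 had the same sign in all 4 libraries, beside 77.2% of all pairs of miRNA rows above 0 in some library. Signs were flipped per library in an exact permutation test, two-sided, where each of those 11 pairs had p = 0.125, the lowest value possible with 4 libraries, and 0.161 after Benjamini-Hochberg adjustment over 18 comparisons (the 15 pairs and the 3 below). No pair could pass a threshold of 0.05. In order of mean TPM, most neighbours could not be placed apart. miR-122 exceeded miR-192 by 1.82 ± 1.86 log2 units (SD, n = 4) but in 3 of 4 libraries, with -0.38 in library 2 (exact permutation p = 0.25, adjusted 0.281). miR-192 and miR-375 differed by 0.54 ± 1.25, positive in libraries 2 and 3 and negative in libraries 1 and 4. TPM divides reads by hairpin length, 89 nt for Mir192 and 64 nt for Mir375, which affects ratios between genes. In library 1 Mir192 had more reads than Mir375, 287 against 278. With reads scaled to the miRNA reads of each library in place of TPM, their mean ratio was 1.05 (exact permutation p = 0.375). On that scale 10 of the 15 pairs kept 1 sign. miR-375 exceeded miR-203 by 1.12 ± 1.11 in 3 of 4 libraries. miR-203 and miR-194 differed by 0.07 ± 0.44, positive in 2 of 4, and by -0.085 without library 3. Only the last neighbours kept 1 sign in every library, with miR-194 above miR-215 by 2.24 ± 0.72. Of pairs farther apart, miR-122 exceeded miR-375 by 2.36 ± 0.91, and miR-192 exceeded miR-194 by 1.72 ± 0.27 and miR-203 by 1.66 ± 0.49, each in 4 of 4 libraries. Ratios to miR-215 depend on the pseudocount, since it is listed at 0 in 2 libraries.

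**Figure D5:**
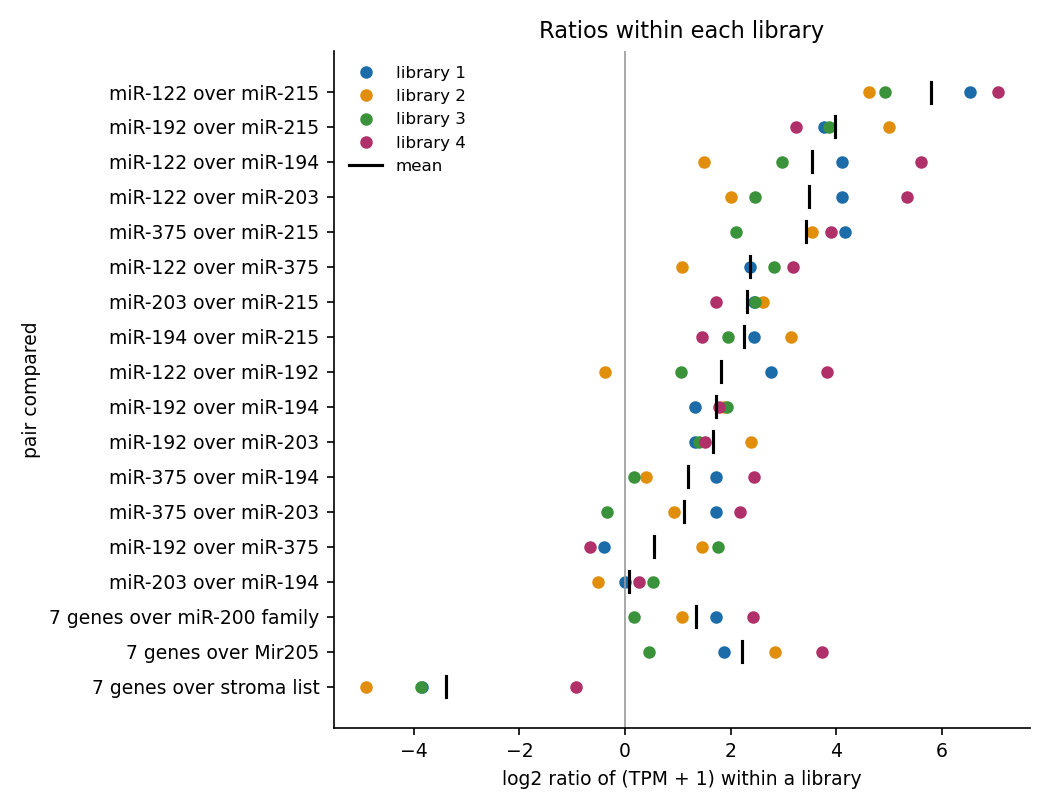
Log2 ratios of (TPM + 1) within each library for the 15 pairs of miRNAs and for the 7 genes summed against the miR-200 family, Mir205 and the mesenchyme and smooth muscle list (labelled stroma list), with points coloured by library and a black bar for the mean. Of the 15 pairs, 11 lie on 1 side of 0 in all libraries, and miR-192 over miR-375 has 2 libraries on each side.

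The 7 genes were also compared with epithelial miRNAs, the sets most like them. The miR-200 family (Mir200a, Mir200b, Mir200c, Mir141 and Mir429) summed to 39.0, 36.2, 86.8 and 31.3 TPM in libraries 1 to 4. Relative to it the summed 7 genes were higher by 1.35 ± 0.96 log2 units (SD, n = 4) in 4 of 4 libraries (exact permutation p = 0.125, adjusted 0.161). The direction did not hold without Mir122. With it left out, a choice made after the data were seen, the ratio was -0.12 ± 0.61 and positive in 1 of 4 libraries (exact permutation p = 0.625). Against Mir205, at 34.8, 10.1, 70.7 and 12.1 TPM, the summed genes were higher by 2.22 ± 1.40 in 4 of 4 libraries, and by 0.76 ± 1.28 without Mir122, in 3 of 4. With medians over miRNAs in place of sums, the ratio to Mir205 turned to -1.51, and that to the miR-200 family was 0.36 ± 0.63, positive in 3 of 4 libraries (exact permutation p = 0.375). Against the mesenchyme and smooth muscle list the summed genes were lower in 4 of 4 libraries, with a ratio of -3.39 ± 1.71 (exact permutation p = 0.125, adjusted 0.161), or -3.85, -4.91, -3.87 and -0.94 in libraries 1 to 4. Library 4 thus lay closest to equal levels, and without it the mean was -4.21. In that library Mir122 was 83.3% of the summed genes. With Mir122 left out, the ratio over 4 libraries was -4.86 ± 0.96 and positive in 0 of 4 (exact permutation p = 0.125).

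Other miRNAs of endodermal organs, from a list of 8 names of which 7 had a row, ranged in mean level from 0.0370 TPM for Mir802 to 398 TPM for Mir7-2. Of the 7, 2 were detected, beside 33.1% of all miRNA rows. Those were Mir7-2 at 398 ± 258 TPM and Mir7-1 at 65.8 ± 44.6 TPM (SD, n = 4), copies of a miRNA known from endocrine and neural cells. How any reads that fit both of these copies were assigned is not known here, so their split is uncertain. In TPM both were higher in libraries 2 and 3 than in libraries 1 and 4, at 179, 670, 567 and 175 TPM for Mir7-2. As shares of the miRNA sum both were highest in library 4, at 1.07% for Mir7-2 and 0.182% for Mir7-1. These were close to 1.02% for Mir7-2 in library 2 and 0.180% for Mir7-1 in library 3. Mir375 was also highest in library 4 as a share. Its range was 8.70 times, against 2.53 times for Mir7-2 and 3.07 times for Mir7-1. Mir802, known from liver and kidney, had 3 reads in all 4 libraries. Pancreatic acinar Mir216b measured 0.273, 0.226, 16.1 and 0.324 TPM, and Mir217 measured 0.253, 0.135, 13.2 and 0.515 TPM. Both were thus high in library 3 alone, where Mir375 was lowest and Mir122 was below its mean. Mir216a was likewise highest in library 3, at 2.75 TPM, and at or below 0.0543 TPM in the others. Mir31 stayed at or below 0.640 TPM.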

How the data were processed

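The deposited table gives TPM per Entrez gene for 4 libraries, made by the authors. Per the labels' protocols, sorted cells were lysed directly, RNA was extracted with a kit for small inputs and made into small RNA libraries, sequenced as single reads of 75 bp. Per the submitters' processing notes mm10 (GRCm38) is the build and limma a tool. The aligner, counter, annotation and handling of multi-mapping reads were not given in the sources used here. Of 2976 rows, 2541 matched RefSeq genes of GRCm38.p6 by gene ID. The 435 others, with means up to 2.97 TPM, were not used for names.

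TPM times RefSeq length gave whole multiples of a library constant for 100% of nonzero miRNA values (tolerance 0.01). The multiples were taken as reads, used for depth, intervals (95%, exact Poisson) and an alternative. Intervals and limits cover counting error only, and no source used here mentions molecular identifiers. The recovery of reads, the permutation test and the Benjamini-Hochberg adjustment were tested on simulated data, and the other steps were not. Ratios used a pseudocount of 1 TPM, which understates differences of low genes. The genes named are the 7, listed markers, genes within 10 kb or with a shared seed, and the 3 nearest profiles where a gene averaged 1 TPM or more. A few others are named where a value refers to them. The genes and lists were chosen with earlier results of these data known. Software was scipy 1.17.1, numpy 2.4.6, pandas 2.3.3 and matplotlib 3.10.9 under Python 3.11.15.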

Additional observations from a re-analysis of the deposited data

Results flagged for a closer look

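Mir215 in library 3, at 0.745 TPM from 16 reads, lay far from the other 3 libraries, which held 0, 0 and 1 read, by Dixon's gap-to-range ratio, which was above the 95% critical value for 4 samples. It was the only one of 28 sets of 4 values to do so, and chance alone flags about 1 in 20.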

How the results depend on the processing

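Of 224 alternatives over 37 results, 216 kept the direction and, for values with no test, moved by less than 1 SD or, for counts, by at most 1.5 times. Many of these could not have come out otherwise, so the count does not measure robustness. Leaving out 1 of 4 libraries cannot move a mean by 1 SD. Where all libraries share a sign, neither leaving 1 out nor another pseudocount can turn the ratio. The number of detected genes was 3 at a minimum of 5 TPM, beside 22.2% of miRNA rows. The 18 nearest profiles kept 7 with rows from a mean of 1 TPM, 6 with a pseudocount of 10 TPM and 10 on shares of the miRNA sum. Without Mir122 the summed level was 41.9 TPM and the summed share 0.106%. The ratio to the miR-200 family turned to -0.12 without Mir122, and that to Mir205 to -1.51 with the median over miRNAs (0.36 for the miR-200 family), in which Mir122 is 1 of 6 values. The ratio of miR-203 to miR-194 ranged from -0.085 without library 3 to 0.26 without library 2. The mean level of Mir215 was 0.0276 TPM without library 3 and 0.207 TPM with it, and the mean share of Mir375 was 0.0222% without library 4 and 0.0396% with it. With single libraries left out, the summed share ranged from 0.195% without library 4 to 0.505% without library 2. No paired analysis was possible because there is only 1 group. In library 4, Mir203 with 21 reads and both Mir194 copies with 8 reads each have wide counting intervals.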
